A study of Mus musculus with 10 samples.

Results

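The 10 genes that mark hepatic stellate cells or carry the fibrotic response of the liver were followed in RNA-seq of whole mouse liver. These were Col1a1, Col1a2, Col3a1, Acta2, Timp1, Tgfb1, Lrat, Des, Pdgfrb and Reln, chosen by name, and each was found among the 41388 genes of every library through its Ensembl identifier. Of these, 8 exceeded 1 CPM (a count scaled to the library total) in at least 1 library and were tested with 13444 genes in all, while Acta2 and Timp1 stayed under this limit in every liver. The 10 libraries, each from 1 mouse liver, fell into 3 groups of C57B/6J mice of about 12 weeks of age. The 5 NAMPT LKO mice, which lack the NAD salvage enzyme NAMPT in hepatocytes through Albumin-cre, had been fasted for 24 h. Another 3 mice were wild-type (WT) littermates, which are NAMPT fl/fl mice with an intact gene, and had been fasted for the same 24 h, and 2 more WT mice had been fasted for 22 h and refed for 2 h. No refed NAMPT LKO livers were analysed here. NAMPT LKO fasting and WT refed livers thus differ in genotype and feeding together, which cannot be told apart in that comparison. The sample labels give these times, whereas the article describes the fasting as 12 h long and the controls as fed at random, and the legend lists 4 WT fasting mice, of which 3 were analysed here.

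Hepatic stellate cells lie between hepatocytes and sinusoidal endothelium and store vitamin A as retinyl esters, which LRAT makes. When the liver is injured they lose this store, respond to TGF-beta and PDGF, gain alpha smooth muscle actin and become the main source of fibrillar collagen, while TIMP1 holds back the proteases that would degrade the new matrix. Portal fibroblasts and mesothelial cells of the liver capsule also make fibrillar collagen, and they do not depend on vitamin A storage. In whole liver, fewer cells of a type and less RNA per cell cannot be told apart.

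Total counts ranged from 30603080 to 43434139 per library. The targeted gene, Nampt, was at 11.6 to 15.1 CPM in the 5 NAMPT LKO livers, at 62.1 to 139 CPM in WT fasting and at 66.8 to 76.9 CPM in WT refed livers, so the knockout livers did not overlap the others. NAMPT LKO liver 5 stood apart from the other 9. Its deviations from the mean of the other 9 livers fell with the GC content of the genes. Spearman's rho was -0.58 across 13369 genes, against -0.03 to 0.27 in the others, each set against its own remaining livers. The mitochondrial genome gave 21.1% of the counts of NAMPT LKO liver 5, against 7.42% to 12.9%. Some results of Col3a1 and Col1a2, and the number of members called against WT refed livers, are also given without this liver. Other values include it unless livers are said to be left out. The hepatocyte marker Alb was between 39544 and 82301 CPM in every liver. Of 9 pancreas markers, Prss1, Prss2, Cela3b, Cpa1 and Amy2a5 were at 0 counts in all 10. All 9 summed to 6.57 and 7.07 CPM in WT refed, 6.45 to 6.66 CPM in WT fasting and 3.63 to 5.32 CPM in NAMPT LKO livers. Cela1, the 1 pancreas marker tested, was called lower in NAMPT LKO fasting than in WT refed livers by edgeR's quasi-likelihood and exact tests, DESeq2 and limma's voomWithQualityWeights.

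The stretch just upstream of the transcription start is shown for Col3a1 and Lrat. Col3a1 is the member collagen with the highest level here, and Lrat the enzyme of the quiescent stellate cell. Among the tested members, the collagens differed most between NAMPT LKO and WT livers. Lrat was the only tested member lower in WT fasting than in WT refed livers without overlap. RefSeq promoters of GRCm38.p6 were at hand for 8 of the 10 genes, without Col1a1 and Pdgfrb. Both stretches cover the 200 bases before the start, 5′ to 3′ on the strand of the gene, at chr1:45311338-45311537 on the plus strand for Col3a1 and at chr3:82903975-82904174 on the minus strand for Lrat. Capitals mark a TATAAA in Col3a1, from base -117 to -112, and a CCAAT in Lrat, from base -81 to -77, both counted back from the start.
Col3a1: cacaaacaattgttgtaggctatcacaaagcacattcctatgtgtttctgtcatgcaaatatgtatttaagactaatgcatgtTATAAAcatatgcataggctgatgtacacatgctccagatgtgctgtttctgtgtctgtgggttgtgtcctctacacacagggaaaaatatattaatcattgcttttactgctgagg
Lrat: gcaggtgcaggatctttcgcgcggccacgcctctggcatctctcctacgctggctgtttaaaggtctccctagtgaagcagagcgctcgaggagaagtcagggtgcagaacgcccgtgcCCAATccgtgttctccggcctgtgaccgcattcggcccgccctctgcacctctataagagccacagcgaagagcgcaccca
Of 32851 mouse promoter windows of this length, 29.3% hold CCAAT and 9.96% hold TATAAA on either strand. The Col3a1 window is 37.5% GC and the Lrat window 62.0%. These matches describe the letters and are not evidence of binding, which was not measured here.

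Per kilobase of transcript, Tgfb1 was the most abundant of the 10 genes and Timp1 the least. Mean RPKM over the 10 livers (CPM further divided by transcript length, as deposited) was 5.49 for Tgfb1, 2.22 for Lrat, 1.74 for Reln, 1.41 for Des, 1.07 for Col3a1, 1.06 for Pdgfrb, 0.582 for Col1a2, 0.477 for Col1a1, 0.329 for Acta2 and 0.169 for Timp1. Lrat and Reln, genes of the quiescent cell, thus had higher mean levels than the fibrillar collagens and the activation markers on this scale. The order was firm at its top, where Tgfb1 exceeded Lrat in 10 of 10 livers and Lrat exceeded Reln in 9 of 10. It was not settled between Col3a1 and Pdgfrb, where Col3a1 was higher in 6 of 10 livers, or between Col1a1 and Acta2, where Col1a1 was higher in 5 of 10. The deposited RPKM uses 2558 exonic bases for Tgfb1, and with the 5042 bases of its GENCODE vM21 exons its mean would be 2.79 RPKM, still first in the order.

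**Figure D1:**
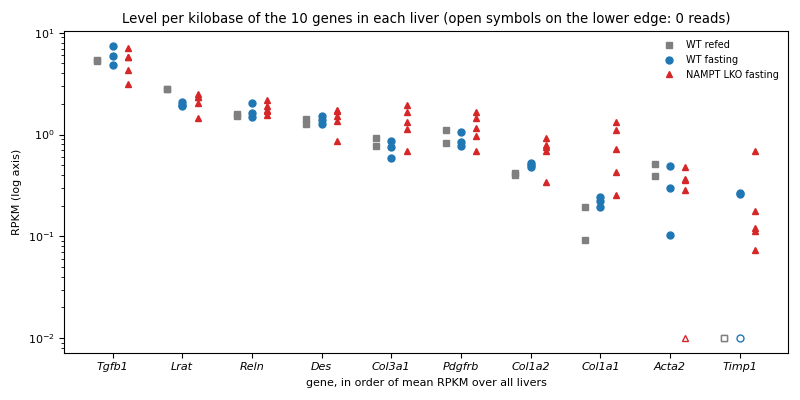
RPKM on a log axis for each of the 10 genes, ordered by mean, with 1 symbol per liver (grey squares, WT refed; blue circles, WT fasting; red triangles, NAMPT LKO fasting; open symbols on the lower edge, 0 reads). Tgfb1 lies on top at a mean of 5.49 and Timp1 last at 0.169, and the NAMPT LKO livers lie above all WT livers for Col1a1.

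Among the tested members, the fibrillar collagens had the largest differences between NAMPT LKO and WT livers. Col1a1 (ENSMUSG00000001506, chromosome 11 from 94936224 to 94953042, GRCm38) encodes the alpha 1 chain of type I collagen, the main protein of scar tissue. In CPM scaled by the TMM factors of edgeR, which hold for all levels below unless RPKM is named, Col1a1 was 8.47, 2.78, 6.96, 4.74 and 1.98 in NAMPT LKO livers 1 to 5. It was 1.44, 1.65 and 1.23 in WT fasting livers 1 to 3, and 0.574 and 1.23 in the WT refed livers. Every NAMPT LKO liver thus lay above every WT liver, and the 5 knockout livers differed among themselves by more than the WT livers did. The counts behind these values were low, at 68 to 296 per NAMPT LKO liver, 54 to 61 per WT fasting liver and 26 and 54 in the WT refed livers. The means were 4.99 ± 2.74 CPM (SD, n = 5), 1.44 ± 0.211 CPM (SD, n = 3) and 0.901 ± 0.462 CPM (SD, n = 2).

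Against WT fasting livers, Col1a1 was 3.47-fold higher in NAMPT LKO fasting livers, or 1.79 on the log2 scale (SE 0.47, the standard error of the fit, 95% interval 0.76 to 2.83), and this did not pass the test across all genes (adjusted p = 0.761 by the quasi-likelihood test of edgeR with Benjamini-Hochberg adjustment, the test behind every adjusted p marked edgeR). With DESeq2 the same log2 fold change of 1.79 had an adjusted p of 0.0376 and passed. The log2 fold change was between 1.52 and 2.00 with each of the 8 livers left out in turn, and 1.14 without NAMPT LKO livers 1 and 3, the highest pair, an omission chosen after seeing the data. Against WT refed livers, which differ in feeding as well as genotype, Col1a1 was 5.53-fold higher and passed. The log2 fold change was 2.47 (SE 0.58, 95% interval 1.18 to 3.75, adjusted p = 0.0224, edgeR). That call was lost without WT refed liver 1 (log2 fold change 2.02, adjusted p = 0.209, edgeR), without WT refed liver 2 (3.12, adjusted p = 0.104) and without NAMPT LKO livers 1 and 3 together (1.81, adjusted p = 0.0609). Between the WT groups, fasting against refed, the log2 fold change of Col1a1 was 0.67 (SE 0.59, 95% interval -0.63 to 1.97, adjusted p = 0.548, edgeR), and leaving out either WT refed liver moved it between 0.22 and 1.31. The 3 comparisons share livers, so these values are not independent of each other.

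Col3a1 (ENSMUSG00000026043, chromosome 1 from 45311538 to 45349706) encodes type III collagen, which is laid down with type I collagen in early scars. Its levels were 19.0, 11.0, 15.8, 13.1 and 7.99 CPM in NAMPT LKO livers 1 to 5, 8.31, 6.02 and 7.13 CPM in WT fasting livers 1 to 3, and 7.27 and 8.64 CPM in the WT refed livers. In all, 4 of the 5 NAMPT LKO livers lay above all WT livers, and NAMPT LKO liver 5 lay among them. The log2 fold change against WT fasting livers was 0.90 (SE 0.25, 95% interval 0.35 to 1.45, adjusted p = 0.761, edgeR), and it was 1.04 without NAMPT LKO liver 5 and 0.58 without livers 1 and 3. Against WT refed livers it was 0.75 (SE 0.29, adjusted p = 0.124, edgeR), which passed without NAMPT LKO liver 5 (0.89, adjusted p = 0.0185). The 2 WT groups overlapped, with a log2 fold change of -0.15 (SE 0.30, 95% interval -0.82 to 0.52).

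Col1a2 (ENSMUSG00000029661, chromosome 6 from 4504814 to 4541543) encodes the alpha 2 chain, which joins a pair of alpha 1 chains in the type I collagen triple helix. It was 11.0, 8.31, 9.29, 9.04 and 4.84 CPM in NAMPT LKO livers 1 to 5, 6.33, 6.30 and 5.70 CPM in WT fasting livers 1 to 3, and 4.64 and 4.86 CPM in the WT refed livers. Again NAMPT LKO liver 5 was the lowest knockout liver and the other 4 lay above all WT livers. The log2 fold change was 0.48 against WT fasting livers (SE 0.22, 95% interval -0.01 to 0.96, adjusted p = 0.833, edgeR). Against WT refed livers it was 0.84 (SE 0.26, 95% interval 0.27 to 1.41, adjusted p = 0.0617, edgeR), and it passed without NAMPT LKO liver 5 (0.99, adjusted p = 0.00157), with DESeq2 (adjusted p = 0.0173) and with edgeR's exact test (adjusted p = 0.0357). WT fasting livers lay above WT refed livers without overlap, by a log2 fold change of 0.36 that did not pass (SE 0.27, adjusted p = 0.478, edgeR).

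The 2 chains of type I collagen did not move by the same amount. The ratio of Col1a1 to Col1a2, each in RPKM, was 1.42, 0.619, 1.39, 0.968 and 0.757 in NAMPT LKO livers 1 to 5, 0.421, 0.485 and 0.399 in WT fasting livers 1 to 3, and 0.229 and 0.467 in the WT refed livers. All 5 knockout livers lay above all 5 WT livers on this ratio, which was looked at after the values of both genes were known and was not tested. The ratio of Col3a1 to Col1a2 was 1.64 to 2.13 in NAMPT LKO livers, just above the 1.18 to 1.62 of WT fasting livers, and overlapped the 1.94 and 2.20 of WT refed livers. The longest Col1a1 transcript is 58.9% GC, higher than 93.7% of the tested genes, and Col3a1 is at 52.5%. With the dependence of each library on GC content removed, an alternative chosen after seeing the data, the log2 fold change of Col1a1 was 1.84 against WT fasting and 2.45 against WT refed livers.

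**Figure D2:**
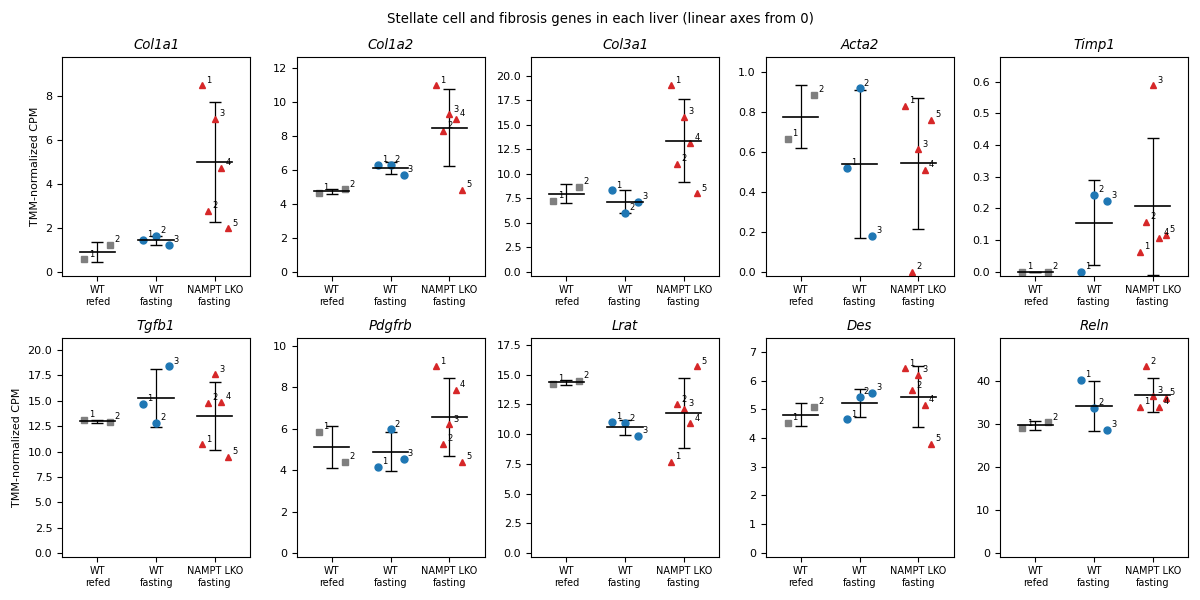
TMM-normalized CPM of each gene in each liver on linear axes from 0 (grey squares, WT refed; blue circles, WT fasting; red triangles, NAMPT LKO fasting; small numbers, liver; horizontal bars, group mean; error bars, SD). Col1a1 is at 1.98 to 8.47 in NAMPT LKO livers and at 0.574 to 1.65 in WT livers, while Des, Tgfb1 and Pdgfrb overlap between the groups.

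The activation markers Acta2 and Timp1 gave too few reads for a firm comparison. Acta2 encodes alpha smooth muscle actin, the contractile protein of the myofibroblast. It had 26, 0, 26, 19 and 26 counts in NAMPT LKO livers 1 to 5, 22, 30 and 8 in WT fasting livers 1 to 3, and 30 and 39 in the WT refed livers. The groups overlapped, and the means of 0.542, 0.538 and 0.775 CPM differed by less than the spread between livers. The 0 counts in NAMPT LKO liver 2 allow up to 3 counts, or 0.0953 CPM, by counting error alone. Timp1, the inhibitor of matrix metalloproteinases, had 2, 5, 25, 4 and 4 counts in NAMPT LKO livers, 0, 8 and 10 counts in WT fasting livers, and 0 counts in both WT refed livers, which allows up to 0.0711 CPM there. All NAMPT LKO livers therefore had Timp1 reads where the WT refed livers had none, with the highest value, 0.588 CPM, in NAMPT LKO liver 3. In a fit without the filter on low counts, neither gene passed in any comparison, the lowest adjusted p being 0.0798 for Timp1 in NAMPT LKO fasting against WT refed livers (edgeR's quasi-likelihood test). At these counts a difference in either gene was neither called nor excluded.

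Among the signals that activate stellate cells, Tgfb1 encodes the transforming growth factor that drives their collagen synthesis. Its levels were 10.7, 14.8, 17.6, 14.9 and 9.50 CPM in NAMPT LKO livers 1 to 5, 14.7, 12.8 and 18.4 CPM in WT fasting livers 1 to 3, and 13.1 and 12.9 CPM in the WT refed livers. The groups overlapped in every comparison. The log2 fold change was -0.18 against WT fasting livers (SE 0.20, 95% interval -0.62 to 0.26, adjusted p = 0.874, edgeR), and 0.01 with limma's voomWithQualityWeights. Pdgfrb, the receptor through which PDGF makes stellate cells divide and migrate, was 9.01, 5.28, 6.21, 7.87 and 4.40 CPM in NAMPT LKO livers, 4.16, 5.96 and 4.53 CPM in WT fasting livers, and 5.85 and 4.39 CPM in WT refed livers. NAMPT LKO livers 1, 4 and 3 lay above the WT livers and the others among them. The log2 fold change was 0.43 against WT fasting livers (SE 0.24, 95% interval -0.11 to 0.96, adjusted p = 0.837, edgeR), so a rise by 0.96 on the log2 scale lies within the interval.

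Markers of the quiescent stellate cell did not pass the test between NAMPT LKO and WT fasting livers. Lrat (chromosome 3 from 82892579 to 82903973) was 7.64, 12.5, 12.1, 10.9 and 15.7 CPM in NAMPT LKO livers 1 to 5, 11.0, 10.9 and 9.83 CPM in WT fasting livers 1 to 3, and 14.2 and 14.5 CPM in WT refed livers. Both WT refed livers lay above all 3 WT fasting livers, and the NAMPT LKO livers spanned the range of both. In WT fasting against WT refed livers the log2 fold change was -0.44 (SE 0.23, 95% interval -0.95 to 0.07, adjusted p = 0.295, edgeR). It passed in a fit of these 2 groups alone (-0.44, adjusted p = 0.0479, edgeR). In NAMPT LKO against WT fasting livers it was 0.15 (SE 0.19, 95% interval -0.26 to 0.57). The highest and lowest Lrat values of all livers were in NAMPT LKO livers 5 and 1. Among the knockout livers, the member collagens were instead highest in liver 1 and lowest in liver 5. Lrat at 42.0% GC is among the more AT-rich genes tested (12.2% of them were lower). With the dependence on GC content removed as above, the log2 fold change of Lrat against WT fasting livers was 0.07.

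Reln encodes reelin, a secreted glycoprotein that in liver is made mainly by stellate cells, and it had the most reads of the 10 genes. It was 33.9, 43.3, 36.5, 33.8 and 36.0 CPM in NAMPT LKO livers 1 to 5, 40.2, 33.6 and 28.6 CPM in WT fasting livers 1 to 3, and 28.9 and 30.3 CPM in WT refed livers. NAMPT LKO livers lay above WT refed livers without overlap and overlapped WT fasting livers. The log2 fold change was 0.11 against WT fasting livers (SE 0.13, 95% interval -0.17 to 0.38) and 0.31 against WT refed livers (SE 0.15, 95% interval -0.01 to 0.63, adjusted p = 0.21, edgeR). Des, the intermediate filament desmin, was 6.42, 5.66, 6.21, 5.14 and 3.79 CPM in NAMPT LKO livers, 4.65, 5.44 and 5.56 CPM in WT fasting livers, and 4.53 and 5.09 CPM in WT refed livers. Its groups overlapped throughout, with a log2 fold change of 0.06 against WT fasting livers (SE 0.18, 95% interval -0.34 to 0.46) and of 0.12 in WT fasting against WT refed livers (SE 0.23, 95% interval -0.38 to 0.62). A change of Des or Reln in the NAMPT LKO livers as large as that fitted for Col1a1 lies outside these intervals.

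Taking the 8 tested members by comparison, 0 of 8 passed in WT fasting against WT refed livers in edgeR, where 7.04% of all genes passed, and 0 of 8 had an unadjusted p under 0.05, against 22.3% of all genes. DESeq2, voomWithQualityWeights and edgeR's exact test also called 0 of the 8. Of the 8, 3 members did not overlap between these groups, Col1a1 and Col1a2 higher and Lrat lower in WT fasting livers, where 49.7% of all genes did not overlap. For Col1a1 the nearest livers of the 2 groups, at 1.23 CPM each, differed by less than the digits printed. In the fasted knockout against fasted WT livers 0 of 8 passed in edgeR, against 0.00744% of all genes, and Col1a1 and Col3a1 had an unadjusted p under 0.05, against 6.03% of all genes. DESeq2 called Col1a1, and voomWithQualityWeights and edgeR's exact test called 0 members. Of the 8, Col1a1 alone did not overlap between these groups, against 3.99% of all genes, and 7 of 8 members had a fold change above 0, with a median log2 fold change of 0.29 against 0.00 over all genes. In NAMPT LKO fasting against WT refed livers 1 of 8 passed, Col1a1, where 11.2% of all genes passed, and 3 of 8 had an unadjusted p under 0.05, against 26.1% of all genes. There Col1a1 and Reln did not overlap, where 33.5% of all genes did not.

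**Figure D3:**
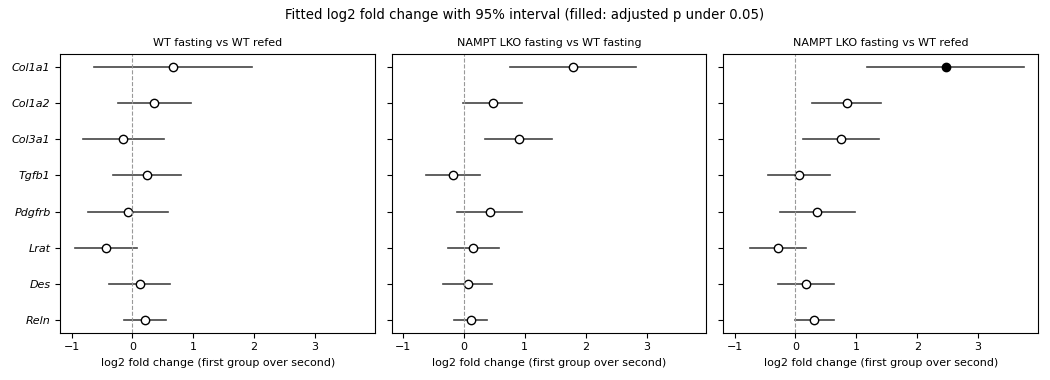
Fitted log2 fold change (circle) and 95% interval (line) of the 8 tested genes in each of the 3 comparisons, filled where the adjusted p is under 0.05. Only Col1a1 in NAMPT LKO fasting against WT refed livers, at 2.47, is filled, and the intervals of Col1a1 and Col3a1 against WT fasting livers lie above 0.

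Markers of other cell types that make or surround portal and capsular matrix were read in the same livers. The summed level of 10 portal fibroblast and mesothelial markers was 66.6, 45.4, 57.5, 40.9 and 38.8 CPM in NAMPT LKO livers 1 to 5, 37.1, 34.4 and 37.7 CPM in WT fasting livers 1 to 3, and 49.6 and 42.6 CPM in WT refed livers. NAMPT LKO livers 1 and 3, the highest for Col1a1 and Col3a1, were also the highest here, but WT refed liver 1, the lowest for Col1a1, came next below them at 49.6 CPM, and NAMPT LKO liver 4 lay below both WT refed livers. Of the 9 markers tested, 8 were higher in NAMPT LKO than in WT fasting livers with a median log2 fold change of 1.12. In edgeR 0 passed and 4 were under an unadjusted p of 0.05, against 6.03% of all genes. Lrrn4, a gene of mesothelial cells, was 1.31, 0.948, 1.88, 0.482 and 0.554 CPM in NAMPT LKO livers and 0.0945 to 0.306 CPM in WT livers, and DESeq2 and edgeR's exact test called it. Msln, the mesothelial surface protein mesothelin, was 2.40 and 2.68 CPM in NAMPT LKO livers 1 and 3 and 0.122 to 1.64 CPM in the other 8. Other markers of this list were divided. Cd34 was 1.36 to 5.5 CPM in NAMPT LKO livers and 0.273 to 1.01 CPM in WT livers. Thy1 overlapped between NAMPT LKO and WT fasting livers. It was 1.04 to 1.28 CPM in NAMPT LKO livers 2 to 5, with liver 1 higher, and 1.04 to 1.39 CPM in WT fasting livers. In the WT refed livers Thy1 was 0.574 and 0.818 CPM.

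The summed level of 8 bile duct markers was 53.8 to 75.2 CPM in NAMPT LKO livers, 34.8 to 47.3 CPM in WT fasting livers and 39.5 and 50.0 CPM in WT refed livers, with no overlap between NAMPT LKO and WT livers. The separation of this sum rested on Spp1, the marker with the most reads among those named here. The sum of the other 7 markers, taken after the values were seen, was 39.9, 34.7, 34.7, 37.8 and 37.9 CPM in NAMPT LKO livers 1 to 5. It was between 26.3 and 38.4 CPM in the WT livers, which overlap. Single markers of lower level also differed. Epcam was 1.22 to 2.83 CPM in NAMPT LKO and 0.491 to 1.10 CPM in WT livers. Krt7 and Krt19 did not overlap between NAMPT LKO and WT fasting livers but overlapped WT refed livers. All 6 markers tested were higher in NAMPT LKO than in WT fasting livers, with a median log2 fold change of 1.58. Spp1, the secreted matrix protein osteopontin, had a log2 fold change of 1.64 (SE 0.22, adjusted p = 0.0603, edgeR), and DESeq2 and edgeR's exact test called Spp1, Krt7 and Krt19. NAMPT LKO liver 5 was highest for all 8 bile duct markers summed and lowest for Col1a1, whereas without Spp1 liver 1 was highest on both. Sinusoidal endothelial markers summed to 392 to 500 CPM in NAMPT LKO livers and 420 to 496 CPM in WT fasting livers. Kupffer cell markers summed to 240 to 492 CPM and 332 to 674 CPM in the same groups. The part of these other cells in the collagen levels was not tested.

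**Figure D4:**
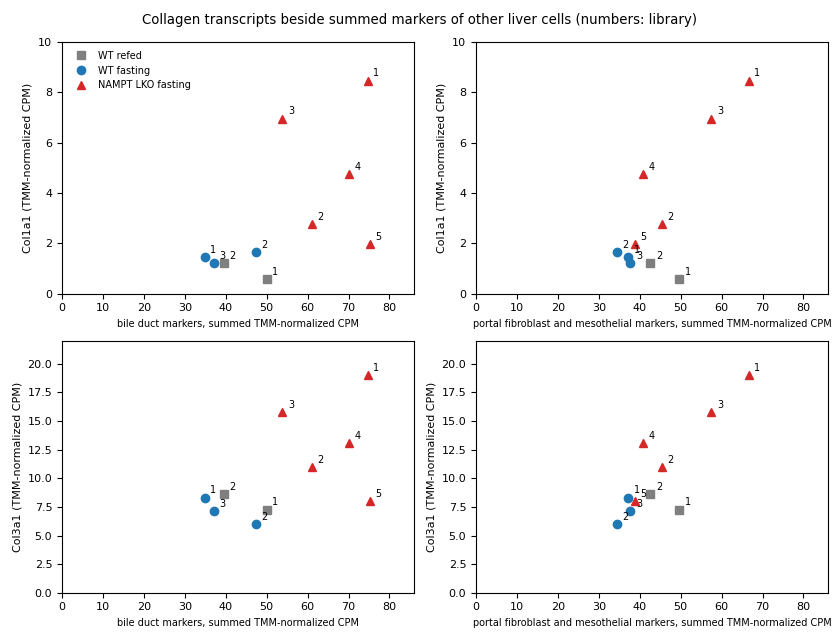
Col1a1 (top) and Col3a1 (bottom) in TMM-normalized CPM against the summed CPM of bile duct markers (left) and of portal fibroblast and mesothelial markers (right), 1 symbol per liver (grey squares, WT refed; blue circles, WT fasting; red triangles, NAMPT LKO fasting; numbers, liver). NAMPT LKO livers 1 and 3 are highest on both axes at right, and NAMPT LKO liver 5 is at 75.2 CPM of bile duct markers with 1.98 CPM of Col1a1.

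The genes around the 10 members were read from lists of related function. In NAMPT LKO against WT fasting livers, 13 of 14 other collagen chains had a fold change above 0 (median log2 fold change 0.29) and 17 of 20 matrix glycoproteins and proteoglycans (median 0.34), while all genes had a median of 0.00. None of these passed by the quasi-likelihood test, DESeq2, voomWithQualityWeights or edgeR's exact test. By the quasi-likelihood test, 4 and 8 of them had an unadjusted p under 0.05, against 6.03% of all genes. Col6a3, a chain of type VI collagen, had a log2 fold change of 0.91 (SE 0.22), at 8.57, 4.77, 4.89, 5.11 and 5.89 CPM in NAMPT LKO livers and 2.75 to 3.47 CPM in WT livers. Fbln1, the matrix glycoprotein fibulin-1, had a log2 fold change of 1.43 (SE 0.40) and was at 0.632 to 2.30 CPM in NAMPT LKO livers and 0.449 to 0.625 CPM in WT livers. Enzymes that fold, cleave and crosslink collagen were divided, 10 of 19 above 0 with a median of 0.02, with Loxl1, a crosslinking enzyme, at 0.83. Matrix proteases and their inhibitors had 8 of 12 above 0, with Timp2 at 0.55 (SE 0.22).

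Genes of the activating and quiescent programmes were divided in that comparison. Of 23 TGF-beta pathway genes 13 had a fold change above 0, with a median log2 fold change of 0.12 and 0 passing by the 4 tools. In edgeR 4 of the 23 had an unadjusted p under 0.05, against 6.03% of all genes. Ltbp1, which anchors latent TGF-beta in the matrix, was 2.81, 2.59, 2.49, 2.11 and 2.56 CPM in NAMPT LKO livers and 1.39 to 1.63 CPM in WT livers, a log2 fold change of 0.73 against WT fasting livers (SE 0.19). The 4 PDGF ligands and the receptor gene Pdgfra had log2 fold changes of -0.34 to 0.32, with Pdgfc, a ligand, highest. Contractile genes had a median of 0.06 over 10 genes, and Lmod1, a smooth muscle actin regulator, 0.72 (SE 0.72), or -0.37 with voomWithQualityWeights. Among 22 quiescent stellate cell markers 12 were above 0 with a median of 0.02, and the lowest p was that of Ecm1, a matrix protein that restrains TGF-beta activation, at -0.41 (SE 0.16, adjusted p = 0.827, edgeR). The 11 retinoid genes had a median of -0.04, and Ttr, the plasma carrier of retinol-binding protein, was at -0.24.

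**Figure D5:**
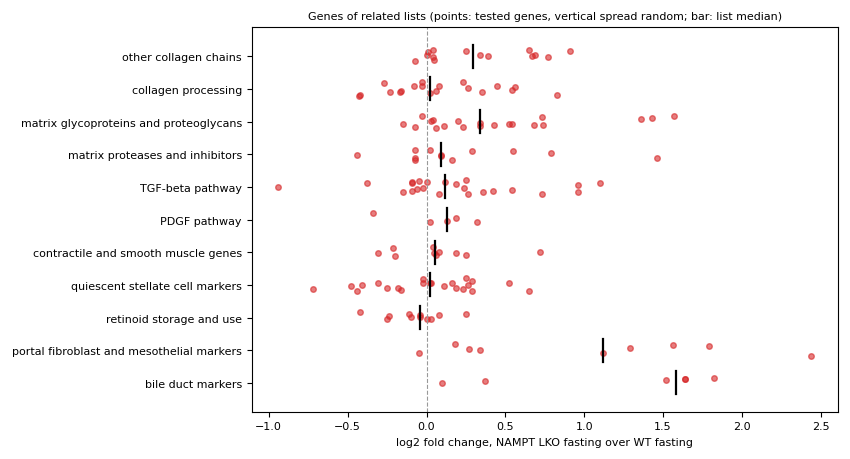
Log2 fold change of NAMPT LKO fasting over WT fasting livers for the tested genes of each related list (points, with random vertical spread) and the list median (bar). Medians lie near 0 for the quiescent stellate cell (0.02) and retinoid (-0.04) lists, at 0.29 for other collagen chains and 0.34 for matrix glycoproteins and proteoglycans, and at 1.12 and 1.58 for the portal fibroblast and mesothelial and the bile duct markers.

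WT fasting and WT refed livers differed in a few other genes of these lists. By the quasi-likelihood test, 1 of 19 collagen processing genes, 1 of 23 TGF-beta pathway genes and 1 of 5 PDGF pathway genes were called. The same test called 1 of 12 matrix proteases and inhibitors and 0 genes in the other related lists, where 7.04% of all genes were called. The refed mice had been fasted as well, so effects of fasting and of refeeding cannot be told apart. Ccn2, connective tissue growth factor, a secreted target of TGF-beta and YAP signalling, was 4.02 and 4.57 CPM in WT refed livers and 15.2, 16.7 and 14.9 CPM in WT fasting livers, higher in the latter by 1.86 on the log2 scale (SE 0.37, adjusted p = 0.0135, edgeR). Pdgfra, the PDGF receptor of portal fibroblasts and stellate cells, was 4.95 and 3.98 CPM in WT refed and 9.11, 8.16 and 7.01 CPM in WT fasting livers, higher by 0.86 on the log2 scale (SE 0.19, adjusted p = 0.0199, edgeR). Mmp19, a matrix metalloproteinase, and Ppib, a collagen-folding prolyl isomerase, were lower in WT fasting livers, at log2 fold changes of -0.69 and -0.50 (adjusted p = 0.0129 and 0.0355, edgeR). Each of these 4 calls was lost without either WT refed liver, that of Pdgfra also without WT fasting liver 1 or 2, and that of Ppib without any 1 of the 5 WT livers (adjusted p = 0.0542 to 0.254, edgeR). Col5a2, a chain of the fibrillar type V collagen, was 2.45 and 3.89 CPM in WT refed and 1.65 to 1.83 CPM in WT fasting livers, at a log2 fold change of -0.86 (SE 0.26, adjusted p = 0.0699, edgeR) that DESeq2, voomWithQualityWeights and edgeR's exact test called (adjusted p = 0.0282, 0.0395 and 0.0452). Vim, the intermediate filament vimentin, had a log2 fold change of 0.95 (adjusted p = 0.205, edgeR) and was called by none of the 4 tools. Bgn, the proteoglycan biglycan, had one of 0.34 (adjusted p = 0.191, edgeR) and was called by voomWithQualityWeights alone of the 4 (adjusted p = 0.0396). Cyp26a1, which degrades retinoic acid, was 11.5 and 15.2 CPM in WT refed livers and 1.70, 5.41 and 3.53 CPM in WT fasting livers, with a fitted log2 difference of -1.92 (SE 0.56, adjusted p = 0.0653, edgeR) that passed with DESeq2 (adjusted p = 0.00791). Tmem56, listed with the quiescent markers, was 228 to 253 CPM in WT refed and 312 to 486 CPM in WT fasting livers, and its log2 fold change of 0.72 did not pass in edgeR (adjusted p = 0.0531) but did with DESeq2, voomWithQualityWeights and edgeR's exact test (adjusted p = 0.00723, 0.00211 and 0.0344). Its mean level in WT livers was above that of every other marker in the list, the next being Dcn at 141 CPM in WT fasting livers, and whether its reads come from stellate cells was not tested. In NAMPT LKO fasting against WT refed livers, Ccn2 was at 9.95 to 31.2 CPM with a log2 fold change of 2.22 (adjusted p = 0.00362, edgeR). Of 14 other collagen chains, Col6a1, Col6a2 and Col6a3 passed at 0.99, 1.23 and 1.00 (adjusted p = 0.0438, 0.0126 and 0.0298, edgeR). Among 19 collagen processing genes, 3 passed as lower and 0 as higher by the quasi-likelihood test. DESeq2 called 4 lower and 3 higher, voomWithQualityWeights 5 lower and 4 higher, and edgeR's exact test 3 lower and 2 higher. The 3 called lower by the quasi-likelihood test were P4ha2, Serpinh1 and Ppib, at -0.89, -1.01 and -0.58 (adjusted p = 0.0351, 0.0399 and 0.00876, edgeR). Their log2 fold changes were -0.47, -0.98 and -0.50 in WT fasting against WT refed livers. They were -0.42, -0.03 and -0.08 in NAMPT LKO against WT fasting livers. Of 11 retinoid genes, 4 passed as lower and 1 as higher, where 11.2% of all genes passed.

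The genes whose pattern over the 10 livers lay closest to that of each collagen were found among 9130 tested genes averaging 5 CPM or more, by the root mean square difference of log2 CPM after centring. For Col1a1 these were Gsn (0.47) and Gpx3 (0.49), against a spread of Col1a1 itself of 0.95, the largest nearest distance of any of the 8 tested members. For Col1a2 they were Galns and Tnxb (0.16 each, own spread 0.40), and for Col3a1 Galns (0.22) and Adamtsl2 (0.24, own spread 0.49). Lrat was matched within 0.10 by Rbm26 and Lysmd3 (own spread 0.28), and Reln within 0.07 by Ryk (own spread 0.18). Exons of Des share 220 bases with the antisense gene Gm15179, which had 0 counts in all livers, and those of Reln 246 bases with the antisense gene Gm10475, which had 11 counts over the 10 livers, and counting on the opposite strand was not tested.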

How the data were processed

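The libraries came from 5 NAMPT LKO fasting, 3 WT fasting and 2 WT refed livers, 1 mouse each. Groups and numbers follow the labels (the WT refed titles carry no number, so these 2 were numbered by order of deposit). Per the labels and methods, the authors selected polyadenylated RNA, aligned reads to GRCm38 with STAR 2.5.1a and used featureCounts 1.4.6-p5 to count unique alignments on each Ensembl gene, versions as in the submitters' processing notes. The deposited count was used without change. The authors also deposited CPM, the count scaled by library total, and RPKM, which further divides by exonic length and was used only to compare levels between genes. Whether counting used strand is not stated. Gene symbols came from GENCODE vM21 (40254 of 41388 genes).

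After rRNA genes were set aside, the 13444 genes that exceeded 1 CPM in any library were kept. Counts were TMM-normalized and fitted with edgeR 4.0.16 in R 4.3.3 (quasi-likelihood test, 1 mean per group, all 10 libraries, Benjamini-Hochberg adjustment over all genes tested), and an adjusted p of 0.05 or less counted as a call. The fit was tested on simulated data. P-values measure the spread between mice, 2 to 5 per group, and counting intervals and limits cover counting error only, with 3 counts as the limit that 0 allows. Alternatives were DESeq2 1.42.0, voomWithQualityWeights of limma 3.58.1, edgeR's exact test, other normalizations and filters, fits of 2 groups at a time, a block for replicate number, and omission of single libraries. Removal of the GC trend (loess span 0.5) and leaving out NAMPT LKO livers 1 and 3 together were chosen after seeing the data.

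The members and gene lists were chosen with earlier results of these data known. Beside all members and Nampt, the text names the gene of each list with the lowest p between the WT groups and for the knockout in fasted livers, and the nearest genes of the members. Marker genes, the type VI collagen chains, P4ha2, Serpinh1, Dcn, Gm15179 and Gm10475 were named after their values were seen. Ctgf is listed as Ccn2. No replicate pair differed by less than sampling noise.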

Additional observations from a re-analysis of the deposited data

Results flagged for a closer look

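In the 5 NAMPT LKO livers, 28 values (the members and the summed lists) were examined for a liver far from the others, of which 3 passed the limit for the gap to the nearest liver over the whole range (0.71 for 5 samples), where chance gives about 1 in 20, or 1.4. Timp1 was highest in NAMPT LKO liver 3, at 0.588 CPM against 0.0639 to 0.158 CPM in the other 4, a gap of 0.821 of the range, on 25 counts. Reln was highest in NAMPT LKO liver 2, at 43.3 CPM against 33.8 to 36.5 CPM, a gap of 0.719 of the range. The summed PDGF pathway genes were highest in NAMPT LKO liver 1, at 29.4 CPM against 21.3 to 22.9 CPM, a gap of 0.802 of the range.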

How the results depend on the processing

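The number of members called in NAMPT LKO fasting vs. WT refed livers was 1, and it became 2 with DESeq2, with edgeR's exact test and with the GC trend removed, 4 with voomWithQualityWeights, 3 at an unadjusted p under 0.05 and 0 without NAMPT LKO livers 1 and 3 together. It was 3 without NAMPT LKO liver 5, where 2835 of the 13371 genes tested passed. With either WT refed liver left out, the call of Col1a1 was lost, and such a fit has 1 mouse in that group. Calls over all genes moved as well, from 1510 to 2242 with DESeq2, 1731 with edgeR's exact test and 2018 with the GC trend removed. They were 4281 with voomWithQualityWeights, 3508 at an unadjusted p under 0.05 and 780 without NAMPT LKO livers 1 and 3 together. For the knockout in fasted livers 0 members became 1 with DESeq2 (24 of all genes) and 2 at an unadjusted p under 0.05 (811 of all genes). In WT fasting vs. WT refed livers 0 members became 1 with only these groups fitted (1627 of all genes). These 2 counts stayed at 0 with each liver left out. Directions turned for Pdgfrb in WT fasting vs. WT refed livers (-0.07, and -0.27 to 0.15 with each liver left out), and for the knockout in fasted livers for Tgfb1 (0.01 with voomWithQualityWeights), Lmod1 (-0.37 with the same tool), Lrat (-0.01 with the replicate block) and Des (-0.01 to 0.17 with each liver left out, -0.10 without livers 1 and 3). Against WT refed livers Tgfb1, at 0.06, turned to -0.02 with library size alone, to -0.00 without livers 1 and 3 and ranged from -0.07 to 0.16 with each liver left out. The causes were not tested.

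Replicate numbers were checked as a pairing of NAMPT LKO and WT fasting livers 1 to 3. The deviations of same-numbered livers correlated at 0.064 to 0.127, those of others among these 6 at -0.188 to 0.005, so that 6 of 6 correlated best with their own number. NAMPT LKO livers 4 and 5, which share no number, correlated with WT fasting livers at -0.153 to 0.131, and WT fasting livers 1 and 2 correlated better with liver 4 (0.131 and 0.069), and WT fasting liver 2 with liver 5 (0.097), than with their own number. The animals differ and the numbers were not taken as pairs. With the replicate block 0 members were called and the log2 fold change of Col1a1 was 1.97, and 0 genes in all were called, against 1, in a fit of livers 1 to 3 alone. The same livers without the block also gave 0 genes, 0 members and 2.08 for Col1a1. Over all genes, the 946 called in WT fasting vs. WT refed livers became 1646 with DESeq2, 3331 with voomWithQualityWeights and 106 to 781 with each liver left out, and the 1510 in NAMPT LKO fasting vs. WT refed livers 207 to 2835 with each liver left out and 4281 with voomWithQualityWeights. The 1 gene called for the knockout in fasted livers became 24 with DESeq2 and with edgeR's exact test. With library size alone the share of called genes that were higher was 26.4% in place of 38.1% in WT fasting vs. WT refed livers and 26.3% in place of 41.4% in NAMPT LKO fasting vs. WT refed livers. Depth limits Acta2 and Timp1, at 0 to 39 counts per liver.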
